A study of Mus musculus with 10 samples.

Results

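The genes described here are 10 genes of antigen presentation on MHC class II molecules and of dendritic cells, read out of the 52096 genes in the deposited table. Members were taken by symbol: the class II chain genes H2-Aa, H2-Ab1 and H2-Eb1, the invariant chain gene Cd74, the peptide exchange genes H2-DMa and H2-DMb1, the regulator gene Ciita, and the dendritic cell genes Siglech, Clec9a and Zbtb46. All 10 symbols matched 1 gene each, and the members were chosen with earlier results of these data known. The comparison asked whether transcript levels in sorted bone marrow hematopoietic stem cells (HSCs) of mice with a floxed Nup214 allele and Tie2-Cre (labelled Nup214fl/+,Tie2-Cre, called HET) differed from those of mice with the floxed allele and no Cre (labelled Nup214fl/+, called FL). There were 5 HET and 5 FL libraries. Tie2-Cre is active in endothelial and blood lineages, and both groups carry the floxed allele. A group with Cre and no floxed allele was not analysed here, so loss of a Nup214 copy and Cre itself cannot be told apart. Ages and the strain are not given in the sources used here, nor is whether each library is a separate mouse. The p-values therefore reflect only how far these libraries differ, which may be technical.

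MHC class II molecules are pairs of an alpha and a beta chain that show peptides from the endosome to CD4 T cells. Cd74 holds the new pair together and fills its groove, the H2-DM pair swaps the remaining Cd74 fragment for peptide, and Ciita is the coactivator that switches the whole set on. Ciita does not bind DNA itself. It docks on the RFX complex, CREB and NF-Y, which sit on the X and Y boxes shared by class II promoters. Dendritic cells, B cells and macrophages are the usual carriers of class II, and blood stem and progenitor cells can carry it as well.

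Levels are given as FPKM, the fragments of a gene scaled to its transcript length and to the mapped fragments of the library, which allows genes to be compared with each other. Read totals were not used here, so the depth behind each value is unknown. FPKM sums ran from 935549 to 1066190 in HET and from 896054 to 1008955 in FL. Nup214, the targeted gene, held 31.2, 9.74, 17.4, 16.3 and 9.13 FPKM in HET 1 to 5, against 65.8, 55.3, 52.2, 43.9 and 30.0 FPKM in FL 1 to 5. Its log2 fold change of -1.59 did not pass over all genes (limma adjusted p = 0.472). The groups crossed only at HET 1 and FL 5 (exact two-sided permutation p = 0.0159). These 2 libraries also stood apart across all genes: the principal component that held 42.6% of the variance placed HET 1 at -46.4, among FL 1 to 4 at -42.4 to -19.6, and FL 5 at 33.3, among HET 2 to 5 at 28.5 to 41.2. Whether the labels of these 2 libraries were exchanged cannot be told from the files, and every mean and fold change given here takes them as labelled. The HSC markers Kit (154 ± 35.8 FPKM in HET, 145 ± 24.2 in FL; SD, n = 5 each) and Slamf1, which encodes CD150 (3.97 ± 1.02 FPKM in HET, 3.81 ± 1.06 in FL), were present in every library, as was Ly6a, which encodes Sca-1 (95.8 ± 54.7 FPKM in HET, 56.5 ± 10.9 in FL, limma adjusted p = 0.494). All 3 encode proteins used for the sort, which took LSK cells (lineage-negative, Sca-1-positive and Kit-positive) that carry CD150 and lack CD48.

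The mean of each of the 10 genes was lower in HET, but none passed the test. In bulk libraries, fewer cells of a type and less RNA per cell cannot be told apart. Cd74, the class II chains and the H2-DM genes were abundant, while Ciita and the dendritic cell genes averaged 0.832 to 3.87 FPKM in HET and 1.28 to 4.88 FPKM in FL. Of 13041 genes tested, 0% passed in limma at an adjusted p of 0.05, with a smallest adjusted p of 0.281, and 1355 genes had an unadjusted p under 0.05, 1167 of them lower in HET. The members' limma adjusted p ran from 0.472 to 0.655. A mean below that of FL was common, since 77.3% of tested genes had a negative log2 fold change and the median of all tested genes was -0.17, against -0.40 for the 10 members. Of the 10 fold changes, 9 lay below that general median. With median-ratio scaling, which removes the general shift, 8 of 10 members had a negative fold change, where 46.5% of all tested genes did, and the exceptions were H2-DMa and H2-DMb1. The others then lay at -0.48 to -0.41 for the 3 chains, -0.36 for Siglech, -0.25 for Cd74 and Clec9a, -0.16 for Ciita and -0.10 for Zbtb46. Unadjusted p values under 0.05, lower in HET, were seen for Siglech and H2-Ab1, 2 of 10 members, against 8.95% of all tested genes. The HET and FL ranges overlapped for all 10, where 0.506% of tested genes had groups that did not overlap.

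**Figure D1:**
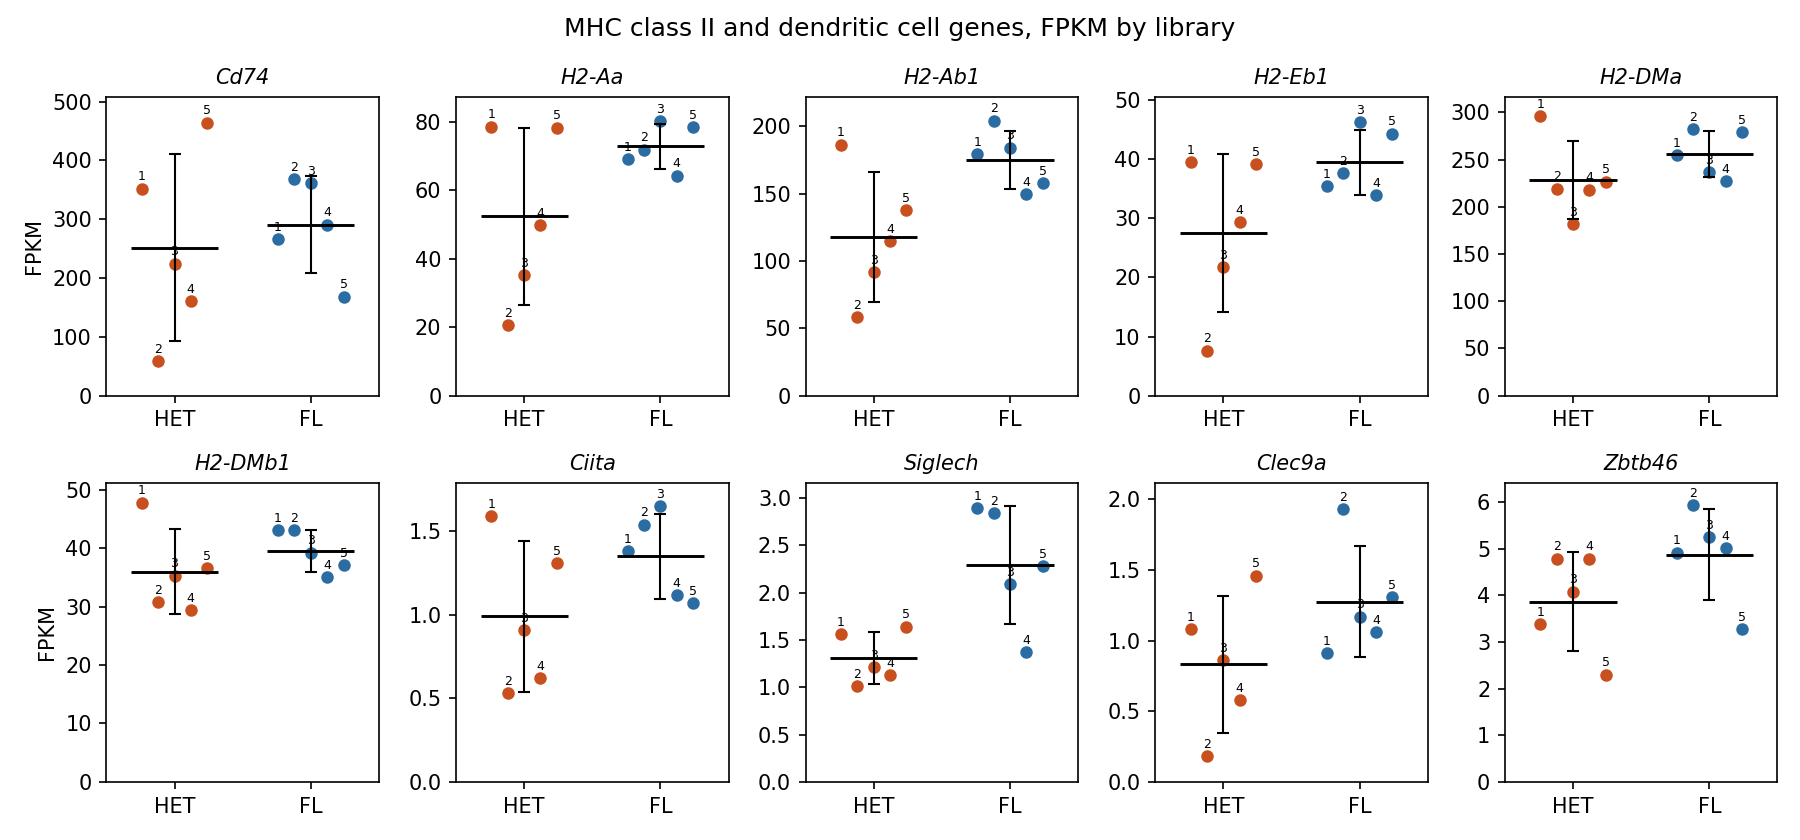
FPKM of each of the 10 genes (vertical axis, linear, a separate scale for each gene) in the HET and FL libraries. Points are libraries with their replicate number, and the bars give the mean ± SD (n = 5). HET 2 is the lowest library for 7 of the 10 genes, and HET 1 lies within the FL range for 8 of them.

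The 3 chain genes lie next to each other in the class II region of chromosome 17 (GRCm38). H2-Ab1 (ENSMUSG00000073421, 34257689 to 34269419, plus strand) encodes the beta chain of the A molecule, H2-Aa (ENSMUSG00000036594, 34282744 to 34287823, minus strand) its alpha chain, and H2-Eb1 (ENSMUSG00000060586, 34305867 to 34316674, plus strand) the beta chain of the E molecule. The promoter windows of H2-Aa and H2-Eb1 hold the letters of the shared boxes, which are shown here because these genes are described side by side across libraries. In each line the first capitals mark GNAAC, the letters of the X box core to which RFX binds, and the second capitals GATTGG, those of the Y box to which NF-Y binds, both found by letters and not by measured binding (RefSeq promoter windows, GRCm38.p6, all read 5′ to 3′ on the gene's own strand). H2-Aa is read from chr17:34287855-34287916 on the minus strand, H2-Eb1 from chr17:34305764-34305824 on the plus strand, and H2-Ob, the beta chain gene of the H2-O molecule that restrains H2-DM, from chr17:34238806-34238864 on the plus strand.
H2-Aa: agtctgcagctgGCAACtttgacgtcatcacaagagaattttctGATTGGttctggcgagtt
H2-Eb1: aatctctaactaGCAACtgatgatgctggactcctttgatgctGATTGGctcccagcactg
H2-Ob: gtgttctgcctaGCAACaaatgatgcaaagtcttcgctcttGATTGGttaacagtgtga
The boxes were 27, 26 and 24 bases apart in H2-Aa, H2-Eb1 and H2-Ob, and the Y box began 49, 60 and 58 bases before the annotated start. GNAAC followed after 20 to 40 bases by GATTGG, on either strand, was found in 383 of 32851 windows of 300 bases (1.17%), while GNAAC alone was in 84.8% and GATTGG alone in 16.1%. Of the 10 members, 7 had a window in the RefSeq table. The paired boxes were in the windows of 3 of these, H2-Aa, H2-Eb1 and H2-DMb1, and in 3 of 4 windows of other class II genes, H2-Oa, H2-Ob and H2-Eb2. The letters sought were chosen after these sequences were seen, so the counts are a description and no test of enrichment. H2-Aa also holds TGACGTCA, the palindrome to which CREB binds, between its boxes, and 1.79% of all windows hold these letters.

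H2-Ab1 was the most abundant chain transcript and had the smallest unadjusted p among them. It held 186, 58.4, 91.8, 115 and 138 FPKM in HET 1 to 5, against 179, 204, 184, 150 and 158 FPKM in FL 1 to 5. HET 2 to 5 all lay below the lowest FL library, and HET 1 lay inside the FL range. Its mean was 118 ± 48.3 FPKM in HET and 175 ± 21.7 in FL (SD, n = 5), a log2 fold change of -0.66 (SE 0.25, unadjusted p = 0.0231, limma adjusted p = 0.472). At least 4 HET libraries below every FL library was also seen for H2-DMa, so for 2 of 10 members, against 7.71% of all tested genes.

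H2-Aa held 78.5, 20.5, 35.1, 49.7 and 78.2 FPKM in HET 1 to 5, against 69.1, 71.8, 80.2, 64.2 and 78.4 FPKM in FL 1 to 5. The FL libraries stayed close together, whereas HET 1 and HET 5 matched them and HET 2, 3 and 4 lay below all 5. Its log2 fold change was -0.62 (SE 0.32, limma adjusted p = 0.472).

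H2-Eb1 put the HET libraries in the same order, with 39.5, 7.63, 21.8, 29.3 and 39.2 FPKM in HET 1 to 5, against 35.4, 37.7, 46.3, 33.9 and 44.3 FPKM in FL 1 to 5. Its log2 fold change of -0.69 (SE 0.37, limma adjusted p = 0.475) was the largest in size of the 10 with 1 added to each level. With 0.1 added it was -0.72, beside -0.74 for Siglech and -0.73 for Clec9a. HET 2 was again the lowest library, and HET 1 and HET 5 again lay within the FL range. Without HET 2 the fold changes were -0.44 for H2-Ab1, -0.34 for H2-Aa and -0.31 for H2-Eb1, so this library carried much of their size.

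The proportions of the chain transcripts were similar on average in both groups and varied between libraries. The level of H2-Aa over that of H2-Ab1 was 0.431 ± 0.0831 in HET and 0.420 ± 0.0549 in FL, and that of H2-Eb1 over H2-Ab1 0.224 ± 0.0586 and 0.228 ± 0.0393 in the same groups (SD, n = 5). The ranges overlapped for both ratios, and H2-Aa over H2-Ab1 ran from 0.352 to 0.568 in HET and from 0.352 to 0.497 in FL. HET 2 had the lowest share of H2-Eb1, at 0.131 of H2-Ab1 against 0.184 to 0.285 in the other 9 libraries. Over 10 libraries, log2 levels of H2-Aa and H2-Eb1 had a Pearson r of 0.97, and H2-Aa and H2-Ab1 one of 0.95. Within HET these r were 0.97 for both pairs, and within FL 0.98 for H2-Aa with H2-Eb1 but 0.29 for H2-Aa with H2-Ab1, and 0.14 for H2-Ab1 with H2-Eb1. The points share their library, its depth and its preparation, and HET 2 lies far below the others, so these are descriptions.

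The partner chain of H2-Eb1 was almost silent. H2-Ea-ps, the E alpha chain gene, listed as a polymorphic pseudogene in GENCODE M21, was at 0 in 8 libraries, at 0.07 FPKM in HET 5 and at 0.36 in FL 2. This gene was named after its values were seen. H2-Eb2, another E beta gene, reached at most 0.54 FPKM in HET and 0.63 in FL and was not tested. An antisense gene, Gm20513, overlaps H2-Eb1 but held at most 0 FPKM in HET and 0.38 in FL.

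Cd74 (ENSMUSG00000024610, chromosome 18, 60803848 to 60812652, plus strand) was the most abundant of the 10 by mean level and varied widely between libraries. It held 352, 58.5, 224, 161 and 464 FPKM in HET 1 to 5, against 266, 369, 362, 291 and 168 FPKM in FL 1 to 5. HET libraries were both the lowest and the highest of all 10, with a 7.94-fold span between HET 2 and HET 5. The means were 252 ± 159 FPKM in HET and 291 ± 81.8 in FL, and the log2 fold change of -0.46 (SE 0.51, limma adjusted p = 0.655) was -0.02 without HET 2 and -0.76 without HET 5. Cd74 was not in step with the chains in every library. Its level over that of H2-Ab1 was 3.38 in HET 5 and 1.0 in HET 2, against 1.07 to 1.97 in FL.

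The H2-DM genes were the steadiest of the set. H2-DMa (ENSMUSG00000037649, chromosome 17, 34119541 to 34139101, plus strand) held 296, 219, 182, 218 and 227 FPKM in HET 1 to 5, against 255, 282, 237, 227 and 279 FPKM in FL 1 to 5. H2-DMb1 (ENSMUSG00000079547, chromosome 17, 34153072 to 34160230, plus strand) held 47.8, 30.8, 35.3, 29.3 and 36.6 FPKM in HET 1 to 5, against 43.1, 43.1, 39.2, 35.1 and 37.1 FPKM in FL 1 to 5. For both, HET 1 was the highest of the 10 libraries and the highest-to-lowest span was 1.63-fold. Their log2 fold changes, -0.18 (SE 0.13) and -0.15 (SE 0.14), differed by at most 0.02 from the median over all tested genes (limma adjusted p = 0.536 and 0.604). Median-ratio scaling turned them to 0.04 and 0.06. With each library left out in turn they ran from -0.28 (without HET 1) to -0.10 (without HET 3) for H2-DMa and from -0.25 (without HET 1) to -0.08 (without HET 4) for H2-DMb1. H2-DMa shares 3094 bases with Brd2 on the other strand, a gene at 51.8 to 153 FPKM in HET and 66.6 to 160 FPKM in FL, and with strand not recorded the reads of that stretch cannot be assigned to either. H2-DMb1 has a close paralog, H2-DMb2, and the handling of reads that match both is not stated, so the levels of this pair are uncertain. H2-DMb2 held 5.34 ± 1.82 FPKM in HET and 6.61 ± 1.48 in FL (log2 fold change -0.29, SE 0.21, limma adjusted p = 0.537).

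By mean level the 6 genes made up of the class II chains, Cd74 and H2-DM fell into the same rough order in both groups, though many ranges overlapped. In HET, Cd74 at 252 ± 159 and H2-DMa at 228 ± 41.7 FPKM had overlapping ranges, as did H2-DMb1 at 36.0 ± 7.28 and H2-Eb1 at 27.5 ± 13.3. Cd74, at 58.5 to 464 FPKM, also overlapped H2-Ab1 and H2-Aa there, and H2-Ab1 overlapped H2-DMa. Within each library H2-Ab1 exceeded H2-Aa. In FL, Cd74 at 291 ± 81.8 and H2-DMa at 256 ± 24.6 FPKM overlapped. By mean level they were followed by H2-Ab1 at 175 ± 21.7 and H2-Aa at 72.7 ± 6.59 FPKM. The lowest Cd74 level in FL, 168 FPKM, lay below the highest of H2-Ab1, 204 FPKM. H2-Eb1 at 39.5 ± 5.49 and H2-DMb1 at 39.5 ± 3.58 could not be ordered in FL.

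Ciita (ENSMUSG00000022504, chromosome 16, 10480059 to 10528418, plus strand) was low. It held 1.59, 0.53, 0.91, 0.62 and 1.31 FPKM in HET 1 to 5, against 1.38, 1.54, 1.65, 1.12 and 1.07 FPKM in FL 1 to 5. HET 2, 3 and 4, the libraries with the lowest chain levels, were also those with the lowest Ciita, and HET 1 and HET 5 lay within the FL range. Its log2 fold change was -0.26 (SE 0.18, limma adjusted p = 0.525). Ciita met the filter of 1 FPKM through all 5 FL libraries but only 2 HET libraries. With a pseudocount of 0.1 its fold change was -0.49, since adding 1 to so low a level shrinks it, and without HET 2 it was -0.17. The annotated span of Ciita shares 25888 bases with Dexi on the other strand, at most 2.14 FPKM in HET and 3.29 in FL, so that some reads may belong to either gene.

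The factors that Ciita docks on split the libraries in another way. All 7 of the genes listed for them, Rfx5, Rfxap, Rfxank, Creb1, Nfya, Nfyb and Nfyc, had a lower mean log2 level in HET, with a median log2 fold change of -0.50, against -0.17 for all tested genes. None passed, the limma adjusted p running from 0.472 to 0.910. Without both HET 1 and FL 5, 6 of 7 passed in limma, where 45.7% of all tested genes did, and 4 of 7 with median-ratio scaling added, where 20% did. With median-ratio scaling 5 were lower and 2, Rfxank and Nfyc, higher (0.14 and 0.04). Nfya, the DNA-binding A subunit of NF-Y, held 15.9, 3.92, 5.13, 3.76 and 4.73 FPKM in HET 1 to 5, against 13.8, 15.7, 15.5, 13.4 and 5.79 FPKM in FL 1 to 5. Creb1, the gene of CREB, held 20.1, 10.4, 11.7, 11.01 and 12.3 FPKM in HET 1 to 5. In FL 1 to 5 it held 21.0, 20.9, 20.7, 20.1 and 11.3 FPKM. For both genes HET 1 sat with FL 1 to 4, and FL 5 with HET 2 to 5. Rfxap, an RFX subunit, averaged 1.59 ± 1.15 FPKM in HET and 2.64 ± 0.740 in FL.

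In each of HET 2 to 5 and in FL 5, all 7 of these factor genes lay below the lowest of FL 1 to 4, and in HET 1 only 1 did. The order was common, since 36.9% of all tested genes lay lower in all 5 of these libraries than in every one of FL 1 to 4, so it is not particular to the factors. Of the 10 members only Zbtb46 had it, and for that gene HET 1 (3.38 FPKM) also lay below the lowest of FL 1 to 4 (4.92 FPKM). H2-Ab1 went partly along, as HET 2 to 5 (58.4 to 138 FPKM) lay below the lowest of FL 1 to 4 (150 FPKM) while FL 5 held 158. H2-Aa and H2-Eb1 did not. HET 5 had 78.2 FPKM of H2-Aa and 39.2 of H2-Eb1, within the FL range, beside 4.73 of Nfya. FL 5 had 78.4 FPKM of H2-Aa and 44.3 of H2-Eb1, near the top of the FL range, beside 5.79 of Nfya.

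**Figure D2:**
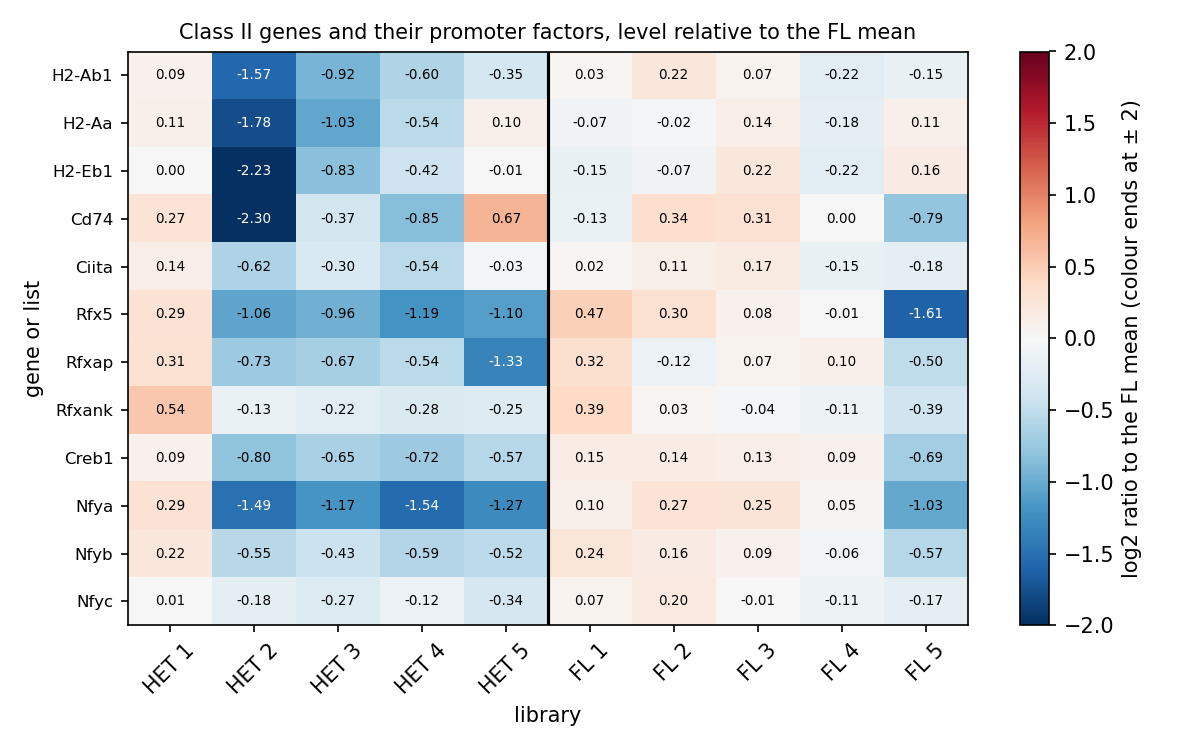
Level of class II genes and their promoter factors in each library (columns) as the log2 ratio of FPKM + 1 to that of the FL mean, with blue below and red above it and the vertical line between HET (left) and FL (right). The factor genes are low in HET 2 to 5 and in FL 5 (Nfya at -1.54 to -1.17 and at -1.03), while H2-Aa is at 0.10 in HET 5 and 0.11 in FL 5.

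Genes on the route by which interferon gamma induces Ciita did not differ past the threshold. Of 7 tested, 4 were lower and 3 higher, with a median log2 fold change of -0.04 and limma adjusted p from 0.720 to 0.977, and with median-ratio scaling or quantile normalization all 7 were higher (medians 0.17 and 0.05). Irf1, the transcription factor that acts on a Ciita promoter, averaged 45.9 ± 11.7 FPKM in HET and 41.4 ± 2.57 in FL, and the receptor kinase genes Jak1 and Jak2 63.0 ± 11.4 and 2.78 ± 0.580 in HET against 66.4 ± 6.19 and 3.02 ± 0.668 in FL.

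Among 10 genes of class II peptide loading and turnover, 7 were lower and 3 higher (median -0.31, 0 called, limma adjusted p from 0.472 to 0.822). Of all tested genes 77.3% were lower, with a median of -0.17. With median-ratio scaling 6 were lower and 4 higher (median -0.10). When HET 1 and FL 5 were also left out, 5 were lower and 5 higher (median -0.05). Without both HET 1 and FL 5, 5 of 10 passed, where 45.7% of all tested genes did. With median-ratio scaling added, 2 of 10 passed, where 20% did. Cd83, which keeps class II on the surface by opposing its ubiquitination, held 2.50, 0.89, 0.87, 0.56 and 0.71 FPKM in HET 1 to 5, against 3.58, 3.62, 1.98, 2.26 and 2.17 FPKM in FL 1 to 5. HET 2 to 5 lay below every FL library, and HET 1 was inside the FL range. Its log2 fold change was -0.86 (SE 0.24, unadjusted p = 0.00356, limma adjusted p = 0.472). Cd83 met the filter of 1 FPKM through all 5 FL libraries but only 1 HET library. The endosomal proteases Lgmn and Ctsb averaged 14.9 ± 10.7 and 149 ± 30.6 FPKM in HET, against 27.2 ± 7.14 and 209 ± 34.0 FPKM in FL (limma adjusted p = 0.472 for both). Ctss, the main protease that trims Cd74, was at 37.9 ± 12.2 FPKM in HET and 33.9 ± 3.54 in FL. It was named outside the rule for named genes, after its values were seen.

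The H2-O genes, which restrain H2-DM, were tested along with H2-DMb2, and all 3 had a lower mean in HET (median -0.29). With median-ratio scaling the fold changes were smaller, at -0.14 for H2-Ob, -0.11 for H2-DMb2 and -0.03 for H2-Oa. Without both HET 1 and FL 5, 2 of the 3 passed in limma, where 45.7% of all tested genes did. With median-ratio scaling added, 0 of 3 passed, where 20% did. H2-Ob held 67.8, 28.5, 23.1, 28.9 and 40.1 FPKM in HET 1 to 5, against 41.1, 58.0, 36.6, 40.5 and 51.3 FPKM in FL 1 to 5. H2-Oa, its alpha chain partner, held 30.7, 12.4, 12.8, 10.3 and 11.5 FPKM in HET 1 to 5, against 18.8, 18.6, 20.7, 16.9 and 11.2 FPKM in FL 1 to 5. HET 1 was the highest of all libraries for both genes, and the groups overlapped (limma adjusted p = 0.530 and 0.671).

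MHC class I shows cytosolic peptides to CD8 T cells. Of 14 class I pathway genes, 6 had a lower and 8 a higher mean log2 level in HET, with a median log2 fold change of 0.04, and none passed (limma adjusted p from 0.472 to 0.998). With median-ratio scaling all 14 were higher, with a median of 0.25, against -0.25 for the 10 members under that scaling. After quantile normalization 6 were lower and 8 higher, with a median of 0.01, against -0.34 for the members. Without both HET 1 and FL 5, 5 of 14 passed in limma, where 45.7% of all tested genes did. With median-ratio scaling added to that removal, 6 of 14 passed, where 20% did. B2m, the light chain of class I, averaged 8698 ± 1125 FPKM in HET and 7137 ± 989 in FL (log2 fold change 0.29, limma adjusted p = 0.472), and its fold change was -0.01 after quantile normalization. Nlrc5, which does for class I what Ciita does for class II, averaged 12.6 ± 3.98 FPKM in HET and 14.2 ± 2.39 in FL, and was named after its values were seen. The chaperone gene Canx averaged 182 ± 17 FPKM in HET and 211 ± 15.2 in FL, and the immunoproteasome gene Psmb10 114 ± 13.2 and 133 ± 12.8 in the same groups. The level of H2-Ab1 over that of the class I heavy chain gene H2-K1 within a library was 0.0237 ± 0.0112 in HET and 0.0406 ± 0.00723 in FL, and the groups overlapped at HET 1 (0.041). H2-K1 itself averaged 5111 ± 704 FPKM in HET and 4357 ± 450 in FL (limma adjusted p = 0.490), which enters this ratio. Over H2-DMa, the level of H2-Ab1 was 0.507 ± 0.144 in HET and 0.686 ± 0.0796 in FL, with overlapping ranges.

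**Figure D3:**
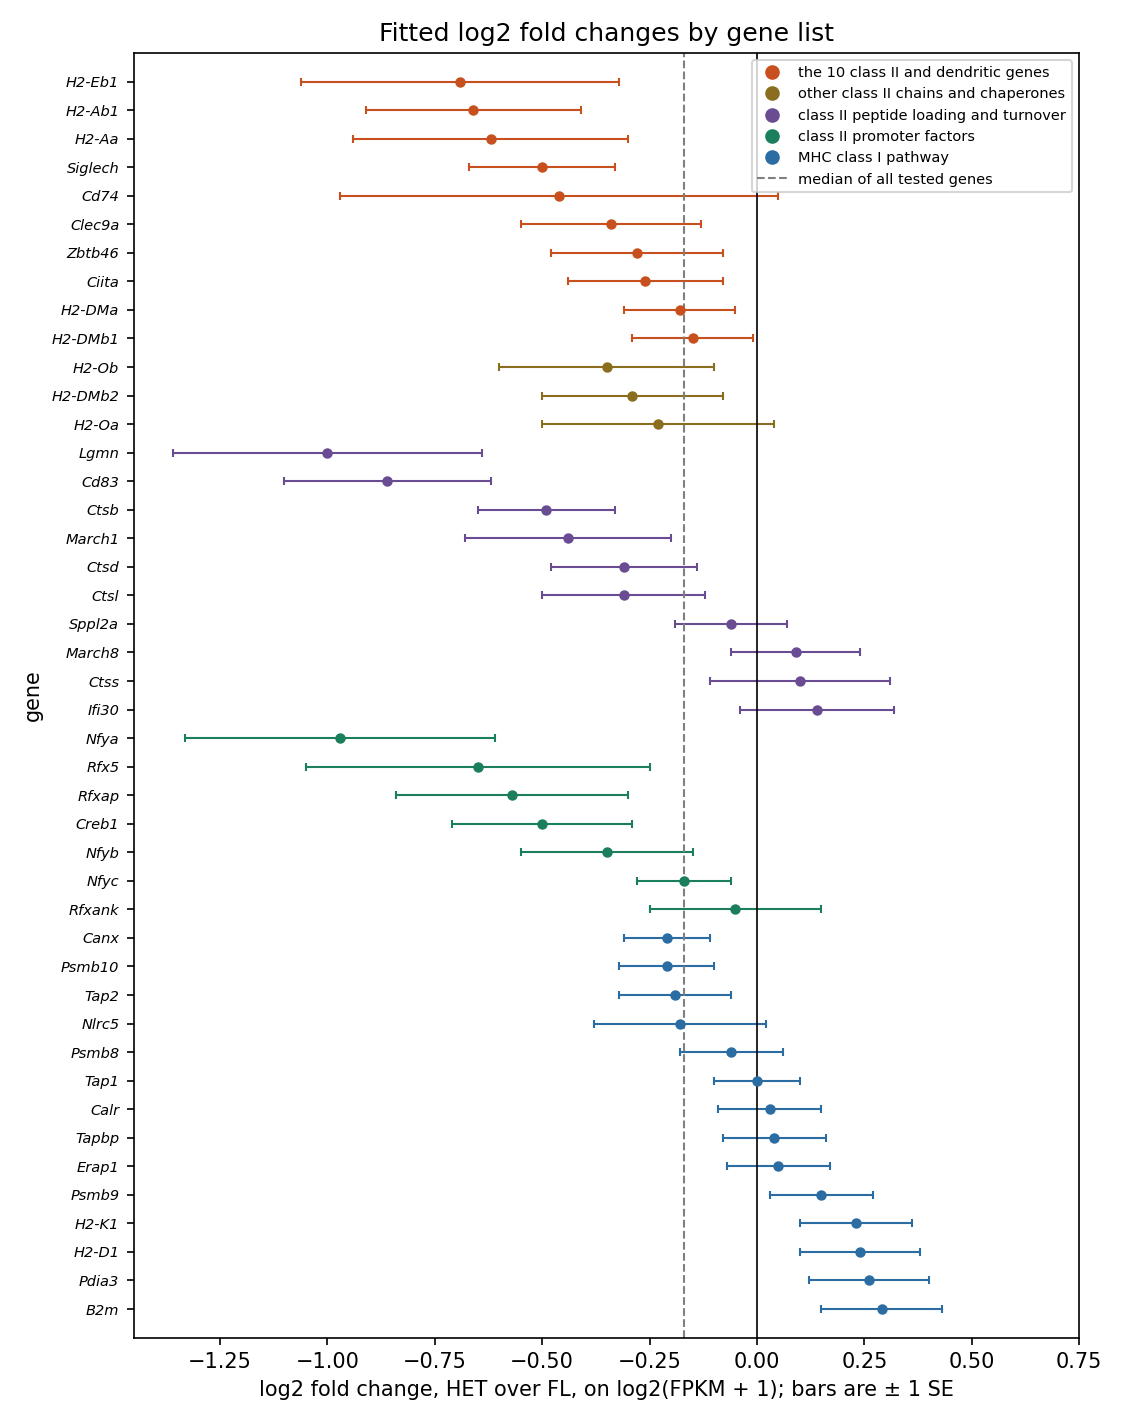
Fitted log2 fold change of HET over FL (horizontal axis, on log2(FPKM + 1)) for the tested genes of 5 lists, with ± 1 SE from limma. The dashed line is the median of all tested genes at -0.17. H2-Eb1, H2-Ab1 and H2-Aa lie furthest left among the 10 genes, at -0.69, -0.66 and -0.62, and B2m, a class I gene, lies at 0.29.

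Class II, H2-DM and class I processing genes are interleaved on chromosome 17 between 34092340 and 34344645, from H2-Oa to H2-Ea-ps. Of 19 annotated genes there, 13 were tested, of which 12 had a negative and 1 a positive log2 fold change. Among all tested genes 77.3% had a negative one. The 8 class II genes had a median of -0.32, while Psmb9, Tap1, Psmb8 and Tap2, which lie between the H2-DM genes and H2-Ob and serve class I, lay at 0.15, 0.00, -0.06 and -0.19. Brd2, the chromatin reader gene that overlaps the start of H2-DMa on the other strand, lay at -0.71 (SE 0.31, limma adjusted p = 0.472). It was one of the genes that followed the split of HET 1 and FL 5, at 153, 67.3, 56.4, 51.8 and 61.5 FPKM in HET 1 to 5, against 139, 160, 138, 111 and 66.6 FPKM in FL 1 to 5. With median-ratio scaling, Psmb9, Tap1, Psmb8, Tap2, H2-DMa (0.04) and H2-DMb1 (0.06) had positive fold changes, where 46.5% of all tested genes had negative ones. The chain genes, H2-DMb2, H2-Oa, H2-Ob and Brd2 stayed negative under that scaling. The stretch and the 5 genes named from it here were chosen after their values were seen.

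**Figure D4:**
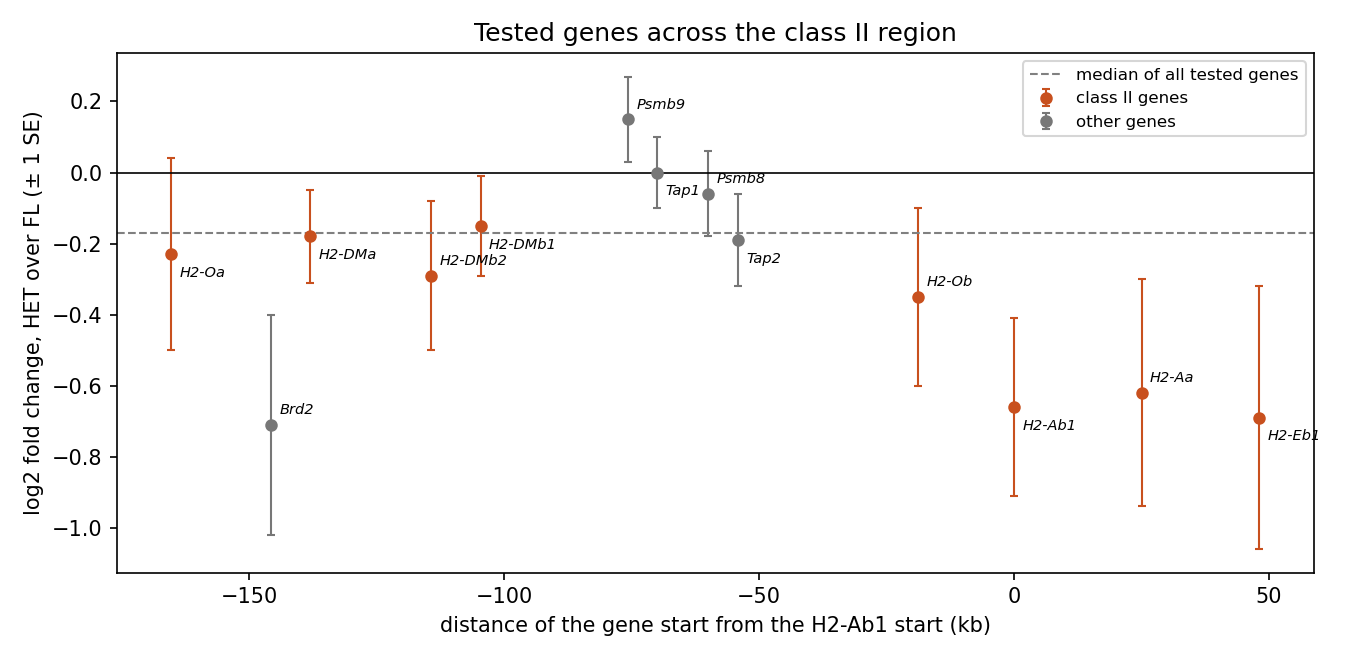
Fitted log2 fold change of HET over FL (vertical axis, ± 1 SE) of the 13 tested genes of the class II region against the distance of each gene start from that of H2-Ab1, in kb. Class II genes are orange and other genes grey, and the dashed line is the median of all tested genes. The chain genes at the right lie between -0.69 and -0.62, and the class I processing genes in the middle between -0.19 and 0.15.

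The 3 dendritic cell genes were low throughout. Siglech (ENSMUSG00000051504, chromosome 7, 55768178 to 55778925, plus strand), a surface receptor of plasmacytoid dendritic cells, held 1.56, 1.01, 1.21, 1.13 and 1.64 FPKM in HET 1 to 5, against 2.89, 2.84, 2.09, 1.37 and 2.28 FPKM in FL 1 to 5. Each HET library was under the FL median of 2.28, and FL 4 was the only FL library to overlap them. The log2 fold change of Siglech was -0.50 (SE 0.17, unadjusted p = 0.0148), the smallest p of the 10, with a limma adjusted p of 0.472. HET 1 and HET 5 lay above FL 4 and below the other FL libraries. HET 2, 3 and 4 lay below every FL library, as they did for H2-Aa and H2-Eb1.

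Clec9a (ENSMUSG00000046080, chromosome 6, 129408862 to 129424763, plus strand), the receptor with which conventional dendritic cells of the cross-presenting type sense dead cells, held 1.08, 0.18, 0.86, 0.58 and 1.46 FPKM in HET 1 to 5, against 0.91, 1.93, 1.17, 1.06 and 1.31 FPKM in FL 1 to 5. It met the filter in 2 HET and 4 FL libraries. HET 2 was the lowest by far and HET 1 and HET 5 lay within the FL range, as for H2-Aa and H2-Eb1 (log2 fold change -0.34, SE 0.21, limma adjusted p = 0.498). The fold change was -0.73 with a pseudocount of 0.1 and -0.19 without HET 2. Its annotated span shares 474 bases with Clec1b on the same strand, a gene at up to 9.01 FPKM in HET and 12.7 in FL. It also shares 594 bases with Gm43914 on the same strand, at up to 0.95 FPKM in HET and 2.36 in FL. The low level of Clec9a and its difference between groups are therefore uncertain.

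Zbtb46 (ENSMUSG00000027583, chromosome 2, 181387762 to 181459426, minus strand), a transcription factor of conventional dendritic cells that is also active in endothelial and erythroid cells, held 3.38, 4.79, 4.08, 4.79 and 2.30 FPKM in HET 1 to 5, against 4.92, 5.93, 5.25, 5.01 and 3.28 FPKM in FL 1 to 5. It ordered the libraries differently from the rest of the set. HET 2, the lowest library for 7 of the other members, was among the highest HET libraries for Zbtb46, and HET 5, the highest for Cd74, was the lowest (log2 fold change -0.28, SE 0.20, limma adjusted p = 0.525). Without HET 5 the fold change was -0.15, and with median-ratio scaling or quantile normalization it was -0.10.

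Other genes of dendritic cells gave no call with all 10 libraries. Of 15 conventional dendritic cell genes 7 were tested, 5 lower and 2 higher in HET, with a median log2 fold change of -0.11. Of 12 plasmacytoid genes 8 were tested, 6 lower and 2 higher, with a median of -0.16. With median-ratio scaling the medians were 0.06 and 0.02. Without both HET 1 and FL 5, 3 of 7 conventional and 4 of 8 plasmacytoid genes passed in limma, where 45.7% of all tested genes did. With median-ratio scaling added to that removal, 3 of 7 and 1 of 8 passed, where 20% did. Summed over each list, levels were 101 to 217 FPKM in HET and 132 to 167 in FL for the conventional genes, and 112 to 218 in HET and 120 to 162 in FL for the plasmacytoid genes. Flt3, a receptor that progenitors share with dendritic cells, made up most of the conventional sum, and Clec4a4 was at 0 in every library. Xcr1, a defining gene of the Clec9a-positive type, was at 0.612 ± 0.291 FPKM in HET and 1.19 ± 0.497 in FL, below the filter, and Cadm1, another gene of that type, averaged 2.36 ± 1.10 in HET and 5.15 ± 2.13 in FL (limma adjusted p = 0.472). Other genes of that type had means close together, with Batf3 at 0.768 ± 0.501 FPKM in HET and 0.726 ± 0.342 in FL, Tlr3 at 0.836 ± 0.543 and 0.730 ± 0.331, and Wdfy4 at 12.2 ± 1.73 and 12.2 ± 2.02 in the same groups. Irf4 and Itgax had higher means in HET, at 1.41 ± 1.07 and 1.17 ± 0.657 FPKM, against 0.382 ± 0.200 and 0.712 ± 0.207 FPKM in FL, and were not tested. Ly6d, on the plasmacytoid list, averaged 21.0 ± 13.2 FPKM in HET and 8.74 ± 2.93 in FL (limma adjusted p = 0.472). Over all 12 plasmacytoid genes, 8 means were lower and 4 higher in HET. Over all 15 conventional genes, 7 means rounded to 3 digits were lower and 6 higher in HET, and the other 2 were equal. The genes in this paragraph were named after their values were seen.

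By likeness over the 10 libraries, the protein-coding genes outside the set closest to the mean standardised log2 level of the 3 chain genes were Naaa, Plbd1, Ifi205, Fam76a and Phf11a, with Pearson r of 0.970, 0.948, 0.935, 0.899 and 0.892. Naaa, an acid amidase gene, is on the conventional dendritic cell list and averaged 5.56 ± 2.04 FPKM in HET and 7.74 ± 0.542 in FL. For Cd74 the closest were Angel1, Zfp775, Gp9, Rbm33 and Primpol, with r of 0.908, 0.906, 0.896, 0.890 and 0.883. No gene was on both lists of 5. Without HET 2 and HET 3, the farthest from the median of the chain score, the r of the first 5 was between 0.473 and 0.839, and without HET 2 and HET 4 that of the Cd74 group was between 0.561 and 0.765. These r were picked as the highest among all tested genes and are a description of 10 libraries.

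Markers of the other cells that carry class II were measured beside the set. B cell markers summed to 28.0 to 68.0 FPKM in HET and 34.5 to 57.0 in FL, mostly from Cd79b, and 6 of 12 had a lower and 6 a higher mean in HET. Pax5, the transcription factor that defines the B cell lineage, was at 0.0960 ± 0.0783 FPKM in HET and 0.216 ± 0.204 in FL. Monocyte and macrophage markers had a lower mean in HET for 13 of 13, with sums of 102 to 459 FPKM in HET and 249 to 450 in FL, and a median log2 fold change of -0.99 over the 12 tested (10 with an unadjusted p under 0.05, 0 called). No marker of either list was at 0 in all libraries, and the part of these cells in the class II levels was not tested. The macrophage sum was 459, 260, 153, 102 and 110 FPKM in HET 1 to 5, against 407, 450, 249, 383 and 390 FPKM in FL 1 to 5. HET 1 was the highest HET library for this sum and for H2-Ab1 and H2-Aa, and HET 3 and HET 4 were low for the sum and the chains, whereas HET 2 was lower than HET 5 for the chains and higher for the sum.

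Plasma cell markers, which belong to cells that have shut Ciita off, had a higher mean in HET for 9 of 9, with sums of 8134 to 102117 FPKM in HET and 2666 to 10975 in FL that came mostly from Igkc and Ighm. HET 5 and HET 3 held the highest of these sums, at 102117 and 47902 FPKM. Neutrophil markers had a higher mean for 8 of 8, with sums of 196 to 741 FPKM in HET and 96.8 to 291 in FL. For T and NK cell markers, 6 of 10 had a lower and 4 a higher mean, with sums of 377 to 731 FPKM in HET and 408 to 726 in FL that came mostly from Nkg7, and HSC markers were split 5 and 5, with sums of 222 to 445 in HET and 211 to 347 in FL. No gene of any of these lists passed in limma. Without both HET 1 and FL 5, 11 of 12 macrophage, 3 of 8 neutrophil and 2 of 8 plasma cell markers passed, where 45.7% of all tested genes did. So did 1 of 3 B cell, 1 of 4 T and NK cell and 2 of 9 HSC markers. With median-ratio scaling added, 2 of 12 macrophage, 4 of 8 neutrophil and 3 of 8 plasma cell markers passed, where 20% did. No B cell, T and NK cell or HSC marker passed in that setting.

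**Figure D5:**
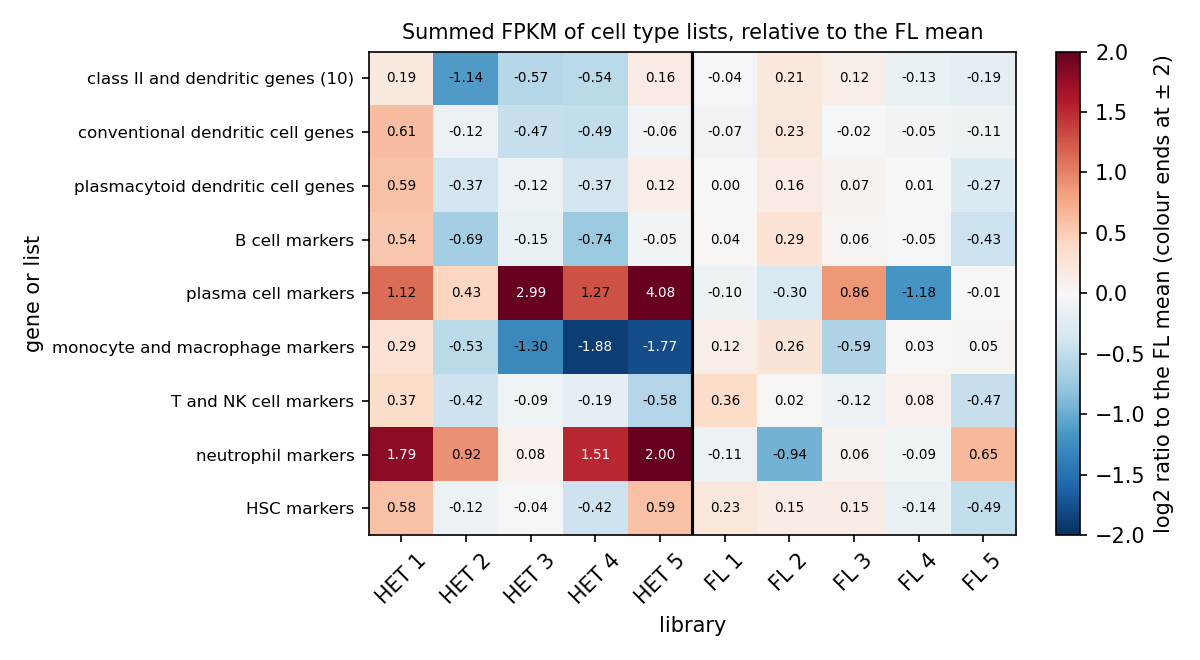
Summed FPKM of the 10 class II and dendritic genes and of 8 lists of cell type markers in each library, as the log2 ratio to the FL mean of that sum (columns are libraries, HET left and FL right of the line). The class II and dendritic sum is lowest in HET 2 (-1.14), the macrophage sum in HET 4 (-1.88) and HET 5 (-1.77), and the plasma cell sum is highest in HET 5 (4.08).

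The calls changed with HET 1 and FL 5, the libraries that crossed for Nup214. Without FL 5 alone no member passed, where 3.14% of all tested genes did in limma and 2.91% did as lower in HET. Without both, H2-Ab1 (log2 fold change -0.89, limma adjusted p = 0.0150) and Siglech (-0.53, limma adjusted p = 0.0411) passed as lower in HET, 2 of 10 members, where 45.7% of all tested genes passed and 42.2% did as lower in HET. With quality weights, which counted these libraries least, 6 of 10 members passed as lower, where 52.7% of all tested genes passed and 47.8% did as lower. These were H2-Ab1, H2-Aa, H2-Eb1, H2-DMb1, Ciita and Siglech, with fold changes from -1.08 to -0.30, and Cd74, at -1.17, did not pass. With median-ratio scaling added to the removal of both libraries no member passed, where 20% of all tested genes passed and 11.5% did as lower, and the chains lay at -0.49, -0.38 and -0.43 for H2-Ab1, H2-Aa and H2-Eb1. Of these counts, 2 of 10 is a smaller share than 42.2% and 6 of 10 is near 47.8%, so neither sets the members apart from other genes. Without HET 2, under median-ratio scaling, 8 of 10 members had a negative fold change, where 50% of all tested genes did.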

How the data were processed

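RNA was measured in 10 libraries of bone marrow HSCs (CD48-negative, CD150-positive LSK cells), amplified by Geo-seq, a method for small samples, and made into libraries with a transposase kit, per the labels' protocols. The deposited values are gene FPKM computed by the authors. The submitters' processing notes name the build mm10 and list Bowtie 0.12.9, Cufflinks 2.1.1, HTSeq and DESeq2 without roles. Strand marking and molecular identifiers are not named, so antisense reads and amplification duplicates could not be told apart from others.

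All 52096 identifiers matched GENCODE M21 (GRCm38). Genes with at least 1 FPKM in at least 5 libraries, 13041 in all, were tested on log2(FPKM + 1) with limma 3.58.1 (R 4.3.3; intensity trend, robust shrinkage, Benjamini-Hochberg over all tested genes). Such fold changes understate those of low genes. The code was tested on simulated data. Nup214 had an exact permutation test over 252 assignments.

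Members, lists and alternatives were chosen with earlier results of these data known. Named genes were the members, Nup214, up to 3 genes with the smallest p of each pathway list, H2-DMb2, the genes of closest pattern and, after their values were seen, defining and most abundant markers of cell types, with other exceptions said to be so. Promoter motifs were chosen after the sequences were seen. Tools also included Python 3.11.15 and pandas 2.3.3.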

Additional observations from a re-analysis of the deposited data

Results flagged for a closer look

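Outlying libraries were looked for in the members, Nup214 and the named pathway genes, 52 groups of 5 libraries in all, by the gap of the highest or lowest library to its neighbour as a share of the group's range (above 0.71). Chance flags about 1 in 20 groups, and 8 were found. No member and not Nup214 was among them. HET 1 was the highest HET library, apart from the other 4, for H2-Oa (30.67 FPKM against 10.3 to 12.8), Cd83 (2.50 against 0.56 to 0.89), Nfya (15.87 against 3.76 to 5.13), Creb1 (20.09 against 10.4 to 12.3) and Jak2 (3.80 against 2.44 to 2.73). FL 5 was the lowest FL library, apart from the others, for Nfya (5.79 FPKM against 13.4 to 15.7) and Creb1 (11.28 against 20.1 to 21.0). FL 2 was the highest FL library for Jak1 (77.24 FPKM against 62.3 to 65.4).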

How the results depend on the processing

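The count of genes past the threshold was 0 of 13041, 1 with median-ratio scaling, with quantile normalization and with median-ratio scaling without HET 2, 6869 with quality weights, 5954 without both FL 5 and HET 1, 2602 when median-ratio scaling was added to that, and 0 to 409 with each library left out, 409 being without FL 5. The members' median log2 fold change of -0.401 ran from -0.565 with a pseudocount of 0.1 to -0.132 with median-ratio scaling without HET 2, and from -0.503 to -0.249 with each library left out. H2-DMa turned to 0.04 with median-ratio scaling and 0.16 with that scaling without both FL 5 and HET 1. H2-DMb1 turned to 0.06 with median-ratio scaling, 0.03 with quantile normalization, 0.12 with the scaling without both libraries and 0.06 with the scaling without HET 2. Cd74 turned to 0.14 with the scaling without HET 2. The cause of these turns was not tested. The other 7 members stayed lower in HET in every alternative in which they were tested. Ciita and Clec9a were not tested where 1 FPKM was required in all 10 libraries. The median-ratio settings that leave out libraries were chosen after the data were seen. Nup214 kept its direction, from -2.0 without both libraries to -1.39 with median-ratio scaling, and from -1.84 to -1.42 with each library left out. Its exact permutation p stayed under 0.05 in these settings, while its limma adjusted p was 0.472 in the main fit. Deviations of same-numbered libraries from their group means had correlations over genes above 0.1 in 3 of 5 pairs (0.214, 0.230 and 0.146) and below 0 in the others (-0.172 and -0.158), which is not every pair, and no label says that a number marks a shared source, so the replicate block is given only here: 0 genes passed with it, 2434 had an unadjusted p under 0.05, against 1355 without it, the members' adjusted p was 0.214 to 0.688, and 3 of 5 HET libraries correlated best with the FL library of their own number. The depth of each library is unknown, so no counting error was computed for genes near 1 FPKM.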
